A study of Mus musculus with 6 samples.

Results

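The hormone-sensing luminal genes examined here were 10 genes by symbol: the receptor genes Esr1, Pgr and Prlr, the transcription factor and cofactor genes Foxa1, Gata3, Tbx3 and Cited1, the secreted or surface signals Wnt4 and Tnfsf11, and the surface marker Ly6a. They were taken by name from the deposited expression table, where all 10 of 10 had a row among 19739 genes. RNA sequencing had been done on wild-type (WT) mouse mammary luminal cells that were sorted by flow cytometry and grown as primary cultures in medium with fetal serum, EGF, FGF2, heparin and the ROCK inhibitor Y-27632. The medium as labelled names no estrogen, progesterone or prolactin. All cultures, controls included, went without serum for 12 hours. For the next 24 hours their serum-free medium held EFNA3 protein (ephrin-A3, a ligand of Eph receptors) at 0 µg/ml in 3 control libraries or 1 µg/ml in 3 EFNA3 libraries. The labels give neither the age of the mice nor whether each replicate was its own animal or culture, so p-values measure the spread between these libraries. That spread may be technical. No freshly isolated or separately sorted hormone-sensing cells were analysed here, so levels are those of these mixed luminal cultures.

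Mammary luminal cells fall into a hormone-sensing lineage, which carries the receptors for estrogen, progesterone and prolactin, and a progenitor and secretory lineage that largely lacks the steroid receptors. Estrogen bound to its receptor induces the progesterone receptor, with FOXA1 opening and GATA3 helping to hold the chromatin at estrogen-responsive enhancers. Progesterone then acts on neighbouring cells through secreted WNT4 and RANKL, the product of Tnfsf11, so that cells with receptors pass the signal to cells without them.

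The letters before the transcription starts of Pgr, Prlr and Cited1 are shown because Prlr and Cited1 were the members whose groups did not overlap, and Pgr is the classical estrogen target. RefSeq promoters (build GRCm38.p6; the authors' build was mm39) were matched by symbol for 8 of 10 genes, and the 250 bases before each start were searched on both strands. The palindromic estrogen response element (GGTCA and its reverse complement TGACC, 3 bases apart), its shorter core GGTCA alone, the FOXA motif TGTTTAC, the GATA motif AGATAA and the STAT motif TTCNNNGAA were sought. Every full element contains the core. Capitals mark the matches, and the 3 windows shown overlap no annotated exon.
Pgr, chr9:8899583-8899832, plus strand: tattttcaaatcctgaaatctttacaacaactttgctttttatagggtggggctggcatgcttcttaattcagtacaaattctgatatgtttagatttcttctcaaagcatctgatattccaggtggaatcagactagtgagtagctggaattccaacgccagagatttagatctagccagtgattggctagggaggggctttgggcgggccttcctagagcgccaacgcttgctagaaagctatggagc
Prlr, chr15:10223656-10223905, plus strand: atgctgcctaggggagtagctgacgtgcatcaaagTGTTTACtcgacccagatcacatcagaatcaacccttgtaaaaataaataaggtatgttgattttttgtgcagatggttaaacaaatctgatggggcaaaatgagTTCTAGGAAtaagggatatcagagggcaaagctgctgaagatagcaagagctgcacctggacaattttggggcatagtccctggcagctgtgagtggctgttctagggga
Cited1, chrX:102252182-102252431, minus strand: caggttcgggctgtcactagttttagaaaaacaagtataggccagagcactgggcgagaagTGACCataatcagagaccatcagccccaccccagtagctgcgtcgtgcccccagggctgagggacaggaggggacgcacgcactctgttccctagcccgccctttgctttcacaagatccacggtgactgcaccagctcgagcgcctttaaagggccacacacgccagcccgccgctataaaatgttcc
The Prlr window shown, 1 of 3 listed for that gene, held 1 FOXA motif and 1 STAT motif, the letters that prolactin-activated STAT5 is known to bind. The other Prlr windows held none of the searched letters. A STAT motif also stood in an Esr1 window, and a FOXA motif in the Foxa1 window. Among 32851 promoter windows of the same length, 3.17% held the FOXA motif and 7.02% the STAT motif. The Cited1 window shown held the core, read there as TGACC on the strand shown and found in 35.24% of windows. Of the other windows listed for Cited1, one held the core too and one did not. The core also stood in the Foxa1 and Gata3 windows. The Pgr window held none of the searched letters. No member window held the full element, which 0.06% of windows hold, or the GATA motif, found in 9.99%. A match describes letters and not a bound site.

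Values are deposited log2 values that share 1 common distribution, with a median of 8.10 in every library, so a shift of all genes at once cannot be seen and sequencing depth is unknown. In bulk cultures, fewer hormone-sensing cells and less RNA per cell cannot be told apart. In the 3 controls, 9 of the 10 genes stood above log2 of 10 (3.32) in every library, and all 9 did so in the EFNA3 libraries too. Tnfsf11 stood below it in all 6. Because long transcripts gather more reads, genes were ordered after dividing by the length of the longest annotated transcript. On that log2 per kb scale the control level ran from 10.58 for Gata3 through 9.23 for Prlr, 8.64 for Tbx3, 8.59 for Ly6a, 8.16 for Foxa1, 7.25 for Wnt4, 7.15 for Esr1 and 6.94 for Pgr to 4.58 for Cited1 and -0.25 for Tnfsf11. Control values of neighbours in this order overlapped for Tbx3 with Ly6a and for Wnt4 with Esr1, and for no other neighbouring pair. Without the division Prlr, the longest transcript, came first and Ly6a, the shortest, moved from rank 4 to rank 8.

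Among all genes of the table, the control mean of Gata3 lay at percentile 94.8 per kb and that of Prlr at 83.1. Tbx3 lay at 74.7, Ly6a at 74.0 and Foxa1 at 67.5, while Esr1 and Pgr lay at 53.7 and 51.3 with Wnt4 just above them. Cited1 lay at 31.7 and Tnfsf11 at 1.84. Esr1, Pgr and Wnt4 thus lay just above the middle of the table, and Gata3, Prlr, Tbx3, Ly6a and Foxa1 lay higher. Cited1, a coactivator of the estrogen receptor, and Tnfsf11 lay below the middle of the table. The table also holds genes that did not pass the filter. Against the tested genes alone, Wnt4 (7.25 log2 per kb), Esr1 (7.15) and Pgr (6.94) lay below the median of 7.52. Which cells the RNA of these genes came from was not tested, so these levels cannot show whether hormone-sensing cells were kept in culture. The median of the 10 genes was 7.71 log2 per kb, near the 7.52 of all tested genes. It was 12.73 for 7 general luminal markers and 10.90 for 6 luminal progenitor markers. For other cell types it was 8.06 for basal, 5.33 for fibroblast, 2.46 for immune and 0.66 for endothelial markers.

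Markers of other mammary cell types were also read in the cultures, and which cells their RNA came from was not tested. Of 8 basal markers, all with a row, Krt14 stood highest at 15.50 log2 per kb and the contractile gene Myh11 lowest at -0.06. Krt5 (13.78), Oxtr (11.20) and Trp63 (9.37) also stood above the basal median, and Acta2 (6.75), Mylk (6.41) and Tagln (4.52) below it. Krt14 and Krt5 stood above every general luminal marker, of which Epcam was highest at 13.54. Fibroblast markers with a row, 5 of 6, ran from 1.79 for Col3a1 to 7.52 for Pdgfra. Endothelial markers, 4 of 5, ran from -0.17 for Cdh5 to 6.49 for Pecam1, and immune markers, 4 of 8, from 1.96 for Lyz2 to 6.95 for Cd68. The summed level of each list, on the log2 scale without division by length, was 16.43 to 16.54 in controls and 16.50 to 16.72 with EFNA3 for general luminal markers, and 15.12 to 15.18 and 15.17 to 15.26 for luminal progenitor markers. For basal markers it was 16.90 to 16.99 and 16.98 to 17.05. For fibroblast markers it was 10.75 to 10.79 and 10.63 to 10.78, for endothelial markers 8.27 to 8.48 and 8.25 to 8.40, and for immune markers 7.35 to 7.74 and 7.43 to 7.89. A sum is carried mostly by the highest genes of its list. In controls these were Pdgfra at 10.29 for fibroblast and Pecam1 at 8.27 for endothelial markers. Pdgfra was the 1 fibroblast marker with a lower mean with EFNA3. Of the tested markers, 6 of 7 general luminal, 4 of 6 luminal progenitor, 3 of 7 basal, 4 of 5 fibroblast, 0 of 1 endothelial and 1 of 3 immune genes had a higher mean with EFNA3. At an unadjusted p under 0.05 stood the keratin genes Krt19 (0.21, SE 0.09) and Krt15 (0.21, SE 0.09) and the contractile gene Mylk (-0.45, SE 0.19), at a level that 3.87% of all tested genes reached upward and 2.86% downward. Without EFNA3 replicate 1 these differences were 0.13, 0.16 and -0.21. Krt19 and Mylk then still stood at an unadjusted p under 0.05 in limma, and Krt15 did not. With transcript length and GC share corrected the 3 differences were 0.11, 0.13 and -0.29, and none stood there. The luminal progenitor marker Aldh1a3 differed by 0.10 (SE 0.07), and by 0.15 without EFNA3 replicate 1, then at an unadjusted p under 0.05. Without that library 2.39% of all tested genes stood there higher and 2.23% lower. The part of these cells in the members' values was not tested.

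**Figure D1:**
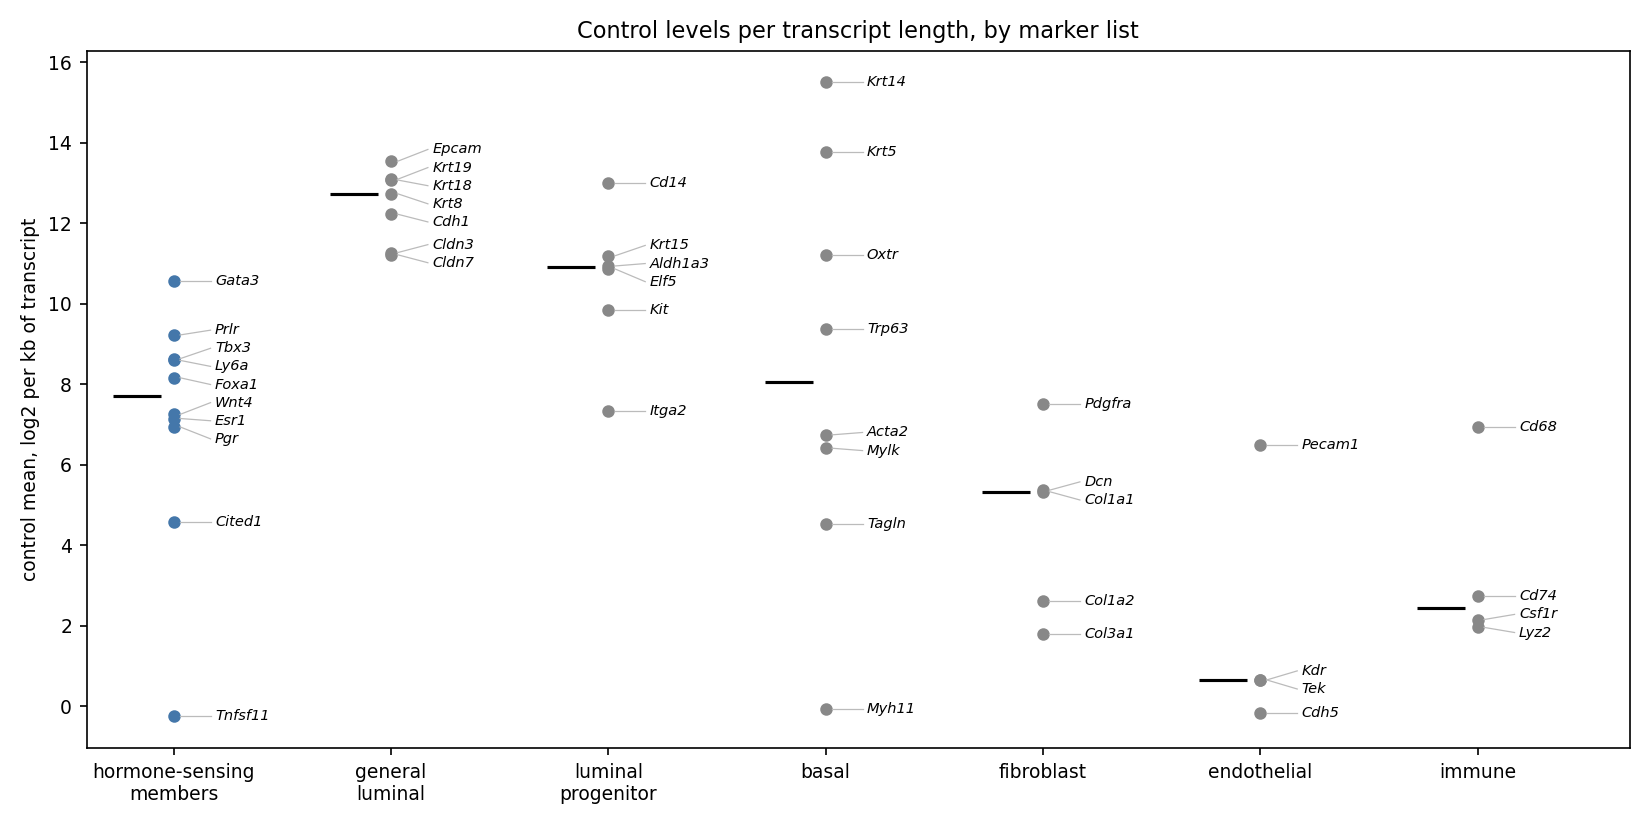
Control mean of each gene with a row, in log2 per kb of its longest transcript (vertical axis), by marker list (horizontal axis), with bars at the list medians. The hormone-sensing genes, in blue, ran from 10.58 for Gata3 to -0.25 for Tnfsf11. Their median was 7.71, against 10.90 for luminal progenitor, 8.06 for basal and 5.33 for fibroblast markers.

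The comparison of EFNA3 with control libraries asks how the added ephrin affects luminal cells. No hormone-sensing gene passed the limma test with Benjamini-Hochberg adjustment at 0.05 over the 16394 genes that passed the filter, where 0% of all genes passed and the smallest adjusted p was 0.55. Of the 9 tested genes, 5 had a higher and 4 a lower mean with EFNA3, and the median difference was 0.005 on the log2 scale against 0.004 over all genes tested. On a scale centred on general luminal markers, which put the median of all tested genes at -0.14, 3 had a higher and 6 a lower mean. At an unadjusted p under 0.05 stood 1 gene higher, Cited1, and 1 lower, Prlr, beside 3.87% of all tested genes higher and 2.86% lower. That count of 2 was 0 without control replicate 1, 1 without control replicate 2 or EFNA3 replicate 1, and 3 without EFNA3 replicate 2 or 3. Of these settings, the shares of all tested genes are given, below, only without EFNA3 replicate 1. The same 2 genes were those with no overlap between the groups, beside 8.53% of all tested genes not overlapping upward and 7.45% downward.

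EFNA3 replicate 1 differed from the rest in a way that followed transcript length. Against the mean of the 6 libraries, tested genes of at most 1063 nt, the shortest eighth, had a median deviation of 0.31 in it. Those of 5951 nt or more, the longest eighth, had one of -0.32. The other 5 libraries lay between -0.13 and 0.02 in the shortest eighth and between 0.02 and 0.12 in the longest. EFNA3 replicate 1 held the lowest or the highest value in 9 of 9 tested hormone-sensing genes, lowest in 5 and highest in 4, and was likewise extreme in 68.3% of all tested genes. Differences below are therefore also given with that library left out and with a correction that takes transcript length and GC share out of every library. Among all tested genes, 2.39% stood higher and 2.23% lower at an unadjusted p under 0.05 in limma without that library, and 3.96% and 2.55% with the correction.

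**Figure D2:**
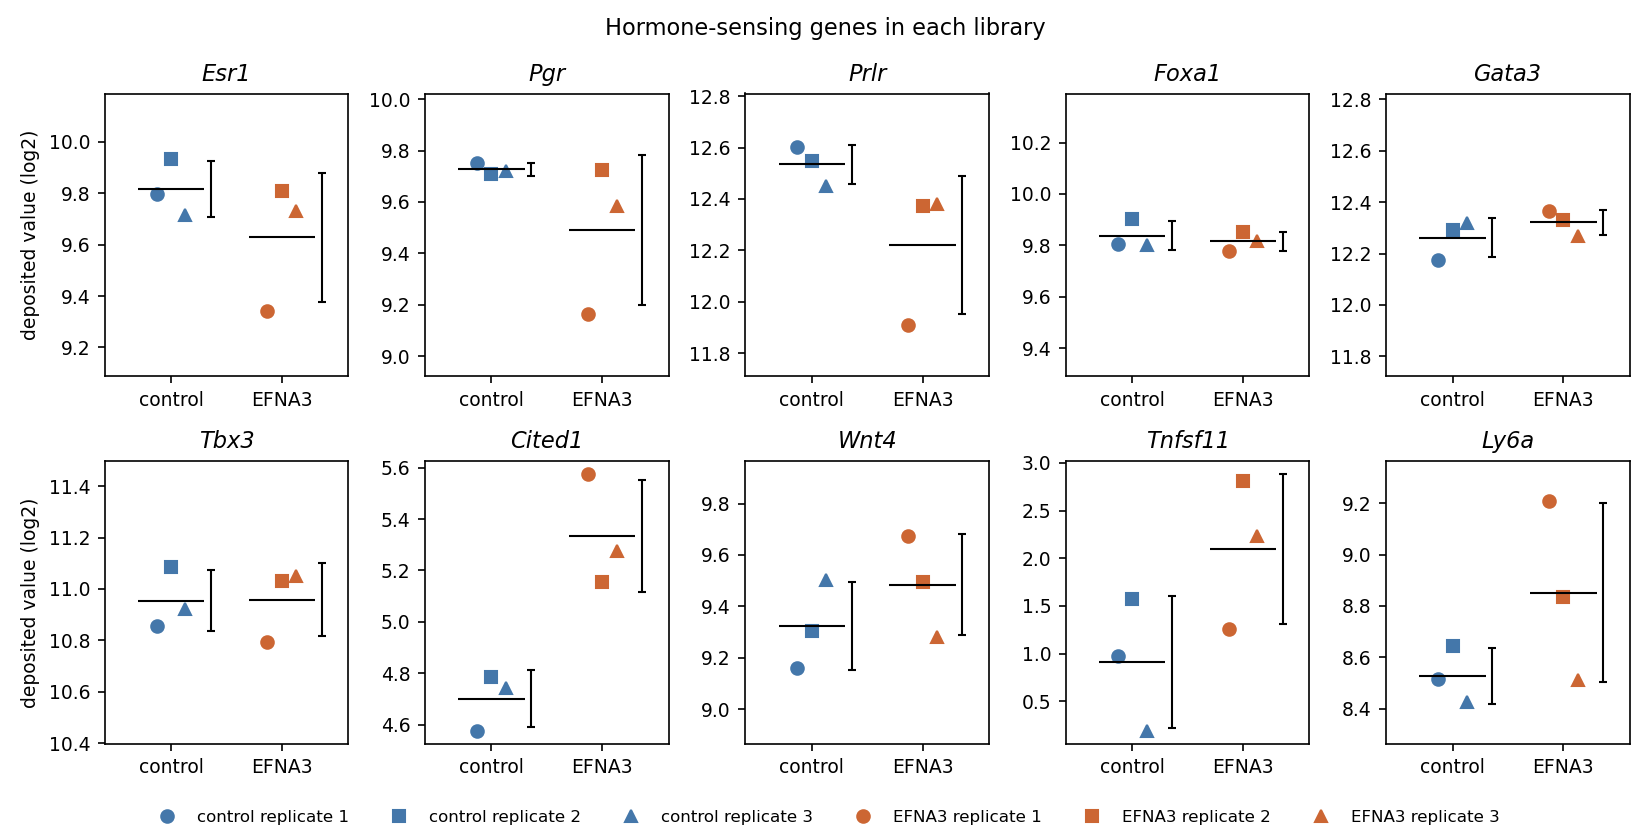
Deposited log2 value (vertical axes, each gene on its own range) of the 10 hormone-sensing genes in the 3 control and 3 EFNA3 libraries (horizontal axes). Lines are group means, bars are SD (n = 3), and the circle of EFNA3 replicate 1 is the lowest or highest point for every gene but Tnfsf11.

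The 3 receptor genes had lower means with EFNA3, all with their lowest value in EFNA3 replicate 1. Esr1, the estrogen receptor alpha gene, had values of 9.80, 9.93 and 9.72 in control replicates 1 to 3 and 9.34, 9.81 and 9.73 in EFNA3 replicates 1 to 3. Replicates 2 and 3 with EFNA3 lay within the control range, and only replicate 1 lay below it. The difference was -0.19 (SE 0.13, 95% interval -0.48 to 0.10, limma adjusted p = 0.56), -0.05 without EFNA3 replicate 1 and -0.05 with the length and GC correction.

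Pgr, the progesterone receptor gene and a classical estrogen target, stood within a narrow control range at 9.75, 9.71 and 9.72. With EFNA3 it stood at 9.16, 9.72 and 9.58. Replicate 2 lay inside the control range and replicates 1 and 3 lay below it. The difference was -0.24 (SE 0.13, 95% interval -0.54 to 0.07, limma adjusted p = 0.55), -0.07 without EFNA3 replicate 1 and -0.08 with the correction.

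Prlr, the prolactin receptor gene, had values of 12.60, 12.55 and 12.45 in controls and 11.91, 12.37 and 12.38 with EFNA3. All 3 EFNA3 values lay below all 3 controls, and replicate 1 lay furthest. Its difference was -0.31 (SE 0.12, 95% interval -0.59 to -0.03, fold 0.81, limma unadjusted p = 0.032, adjusted p = 0.55). Without EFNA3 replicate 1 its difference of -0.16 was at an unadjusted p under 0.05 in limma. The corrected difference of -0.10 was not. The exact two-sided permutation p was 0.1, the smallest that 3 against 3 libraries can give. With 9900 nt, Prlr has the longest transcript of the 10 genes, followed by Pgr with 6889 nt and Esr1 with 6339 nt. In the length eighth of these 3 genes the median difference of all tested genes was -0.18.

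The lineage factors had small differences. Foxa1, a pioneer factor for the estrogen receptor, ran from 9.80 to 9.90 in controls and from 9.78 to 9.85 with EFNA3, with a difference of -0.02 (SE 0.08, 95% interval -0.19 to 0.15, limma adjusted p = 0.92). Gata3, a zinc finger factor needed for luminal differentiation, stood at 12.17, 12.29 and 12.32 in controls and at 12.37, 12.33 and 12.27 with EFNA3, a difference of 0.06 (SE 0.07, 95% interval -0.10 to 0.22). Tbx3, a T-box repressor needed for mammary development, ran from 10.86 to 11.09 and from 10.79 to 11.05, a difference of 0.005 (SE 0.10, 95% interval -0.21 to 0.22). Without EFNA3 replicate 1 the differences of Foxa1, Gata3 and Tbx3 were -0.002, 0.04 and 0.09, and with the correction -0.04, 0.07 and 0.08. The groups overlapped for all 3 factors. On the deposited scale the intervals from all libraries bound the difference to within 0.22 in either direction. Centred on general luminal markers in place of the deposited scale, Gata3 and Tbx3 had differences of -0.08 (SE 0.10) and -0.14 (SE 0.16), so their direction depends on the scale. Foxa1 had one of -0.16 (SE 0.12) there, and the bound of 0.22 does not hold on that scale. The direction of Foxa1 turned with library weights and without control replicate 2, and that of Tbx3 without control replicate 1 or 3 or EFNA3 replicate 2 or 3.

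Cited1, whose product binds the estrogen receptor as a coactivator, differed most among the tested members. Its controls stood at 4.58, 4.78 and 4.74 and its EFNA3 libraries at 5.58, 5.15 and 5.27. The groups did not overlap, and the lowest EFNA3 library lay above the highest control. The difference was 0.63 (SE 0.23, 95% interval 0.11 to 1.16, fold 1.55, limma unadjusted p = 0.023, adjusted p = 0.55), and the exact permutation p was 0.1. Without EFNA3 replicate 1 it was 0.51 and no longer at an unadjusted p under 0.05. The corrected difference, also 0.51, was. The median difference of tested genes in its length eighth, around its 1090 nt, was 0.12. Cited1 was low in these cultures, at percentile 28.3 of the table without division by length (31.7 per kb), and a filter at 50 removed it.

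**Figure D3:**
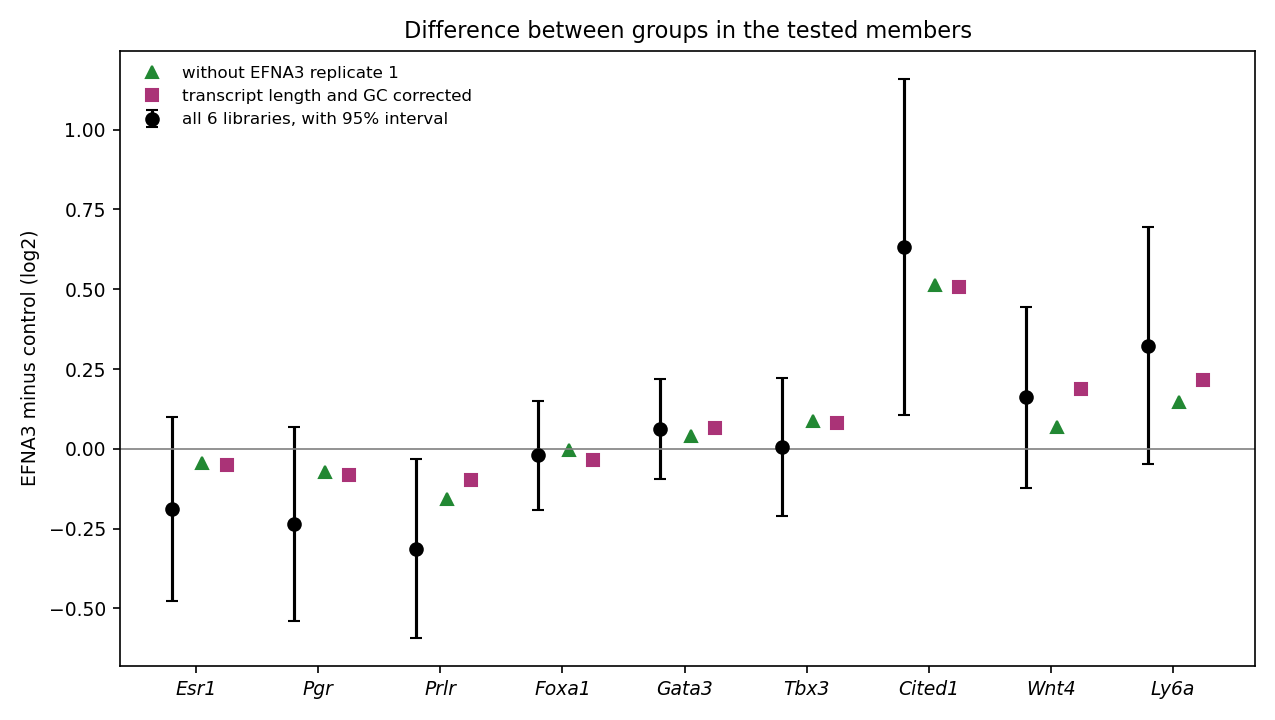
Difference between EFNA3 and control means in log2 (vertical axis) for the 9 tested genes (horizontal axis). Black points with 95% limma intervals use all 6 libraries, green triangles leave out EFNA3 replicate 1 and purple squares carry the length and GC correction: Prlr moved from -0.31 to -0.16 and -0.10, and Cited1 from 0.63 to 0.51 under both.

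Among the paracrine signals, Wnt4, a progesterone-induced ligand, stood at 9.16, 9.30 and 9.50 in controls and at 9.67, 9.50 and 9.28 with EFNA3. The groups overlapped, and the difference was 0.16 (SE 0.13, 95% interval -0.12 to 0.45), or 0.07 without EFNA3 replicate 1 and 0.19 with the correction. Tnfsf11, which encodes RANKL, was listed at 0.97, 1.58 and 0.19 in controls and at 1.26, 2.81 and 2.23 with EFNA3. The groups overlapped, and the values lie near the lowest of the table, at -0.79. Below log2 of 10 in all 6 libraries, Tnfsf11 did not pass the filter and is given no fold. With no filter it was fitted too, and 0 genes passed an adjusted p of 0.05 in limma.

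Ly6a encodes SCA1, a surface protein used to sort hormone-sensing luminal cells and one that interferon also induces. Its values were 8.51, 8.64 and 8.43 in controls and 9.21, 8.83 and 8.51 with EFNA3. Replicates 1 and 2 lay above all controls and replicate 3 lay among them. The difference was 0.32 (SE 0.16, 95% interval -0.05 to 0.70, limma adjusted p = 0.55), 0.15 without EFNA3 replicate 1 and 0.21 with the correction. The median difference of tested genes in its length eighth was 0.17. Ly6a has close relatives in the genome, and the labels do not say how reads shared with them were counted, so its values are uncertain. Among these relatives Ly6d differed by 0.25 (SE 0.14), Ly6e by 0.13 (SE 0.10) and Ly6c1 by 0.03 (SE 0.53). They were 0.09, 0.02 and -0.24 without EFNA3 replicate 1, and with the correction 0.11, 0.08 and -0.09, so the direction of Ly6c1 turned.

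The order of the 9 differences followed transcript length. Genes are not independent replicates, and they share the libraries, so this is a description: Spearman rho between difference and length was -0.87 over the 9, against -0.44 over all tested genes with a length. It was -0.82 without EFNA3 replicate 1 and -0.83 after correction, against -0.26 and -0.06 over all tested genes.

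**Figure D4:**
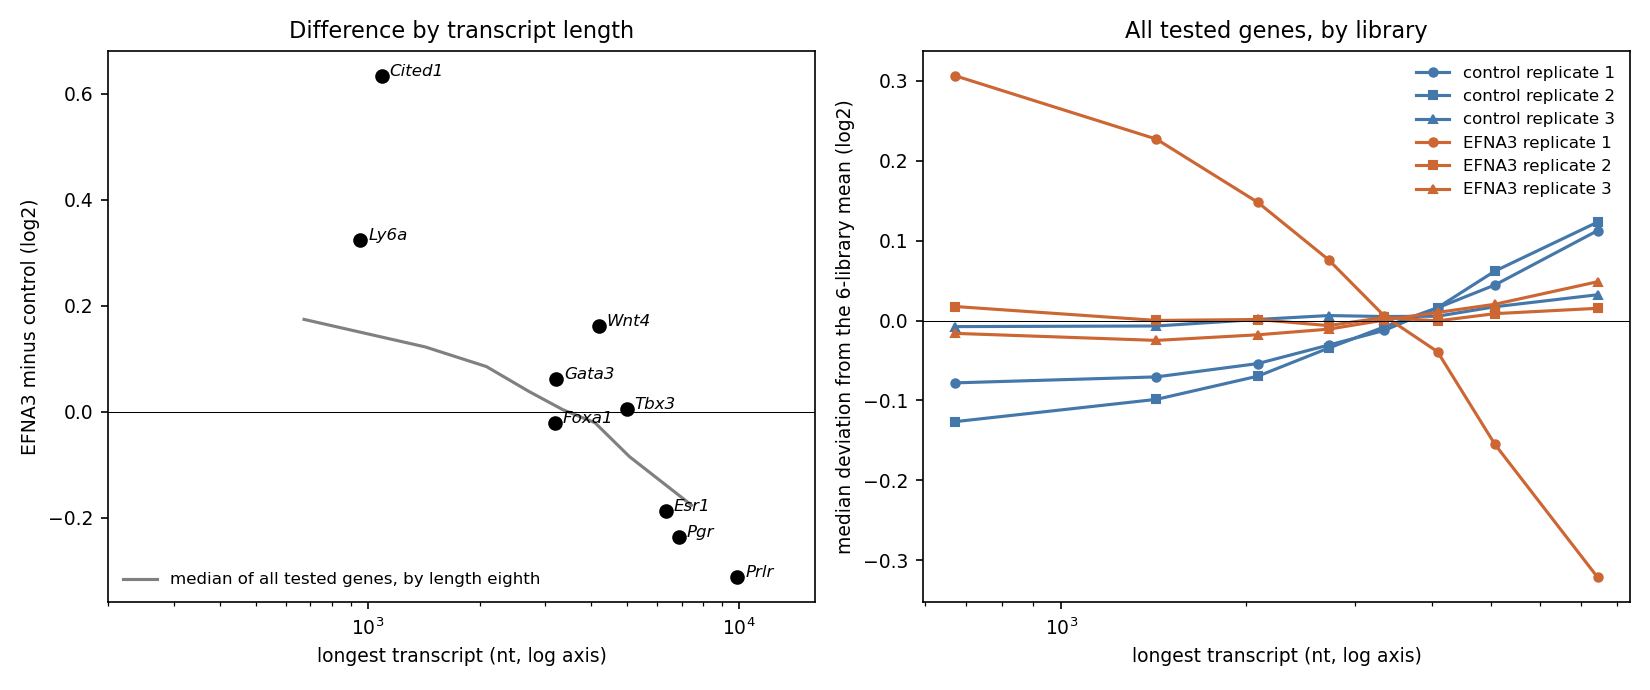
Left, EFNA3 minus control in log2 (vertical axis) against longest transcript length (log axis) for the 9 tested genes, with the median of all tested genes by length eighth in grey. Right, median deviation of each library from the 6-library mean by length eighth, where EFNA3 replicate 1 ran from 0.31 in the shortest eighth to -0.32 in the longest.

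The genes with values most like the receptors over the 6 libraries were found by Pearson correlation, given as a description. They were Card10 (0.999), Gm5841 (0.996) and Rasa1 (0.995) for Esr1, Sulf2 (0.998), Dhx8 (0.998) and Pard3 (0.996) for Pgr, and Gm6493 (0.999), Golga3 (0.999) and Pld1 (0.998) for Prlr. Such likeness was common, since 1929 tested genes for Esr1, 1833 for Pgr and 2290 for Prlr had a correlation over 0.9.

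Other genes around the hormone-sensing program were read from lists chosen by function. No gene of any list passed limma over all genes tested. Of 11 further hormone-sensing markers, 9 were tested, 7 with a higher and 2 with a lower mean, and 0 stood at an unadjusted p under 0.05. In controls Ptn, a secreted growth factor, was their highest at 11.70 log2 (10.34 per kb) and Tph1, a serotonin synthesis enzyme, their lowest at 3.05. Ptn differed by 0.17 (SE 0.10), Spdef by 0.44 (SE 0.38) and Myb by 0.08 (SE 0.09). These were 0.05, 0.08 and 0.03 without EFNA3 replicate 1, and with the correction 0.14, 0.37 and 0.10. Prom1, a surface marker of hormone-sensing luminal cells, stood at 11.36 in controls, and the estrogen-induced EGF receptor ligand Areg at 8.26. Areg differed by 0.04 (SE 0.13), and by -0.06 without EFNA3 replicate 1 and -0.05 with the correction.

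Of 9 tested nuclear receptors, 2 had a higher and 7 a lower mean, with a median difference of -0.09. Their controls ran from 13.08 log2 for Rxra, the common partner of many receptors, to 1.29 for Esr2, the second estrogen receptor gene, which did not pass the filter. Nr3c2, the mineralocorticoid receptor gene, was the 1 at an unadjusted p under 0.05, with a difference of -0.32 (SE 0.14), or -0.19 without EFNA3 replicate 1 and -0.19 with the correction. Under either of these, 0 genes of the list stood there. The glucocorticoid receptor gene Nr3c1 differed by -0.16 (SE 0.10) and the vitamin D receptor gene Vdr by -0.09 (SE 0.08). These were -0.06 and -0.03 without EFNA3 replicate 1, and with the correction -0.02 and -0.04. The groups of Vdr did not overlap, with all EFNA3 values below the controls.

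Among factor relatives and cofactors, 12 of 16 genes were tested, 3 with a higher and 9 with a lower mean and 0 at an unadjusted p under 0.05. Their controls ran from 13.67 log2 for Runx1 to 1.73 for Gata2. The steroid receptor coactivator genes Ncoa2, Ncoa1 and Ncoa3 differed by -0.30 (SE 0.15), -0.30 (SE 0.15) and -0.20 (SE 0.12), or by -0.11, -0.11 and -0.05 without EFNA3 replicate 1 and by -0.11, -0.13 and -0.03 with the correction. The corepressor gene Nrip1 differed by -0.18 (SE 0.12), or by -0.04 without EFNA3 replicate 1 and -0.02 with the correction.

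Of 18 estrogen-response genes, 14 were tested, 8 with a higher and 6 with a lower mean and a median difference of 0.02. Greb1, an estrogen-induced cofactor of its receptor, stood at 7.70, 7.99 and 7.51 in controls and at 6.88, 7.56 and 7.37 with EFNA3. EFNA3 replicate 2 lay within the control range. Greb1 was the 1 gene of the list at an unadjusted p under 0.05, with a difference of -0.47 (SE 0.20, limma adjusted p = 0.55), or -0.27 without EFNA3 replicate 1 and -0.29 with the correction, with 0 genes there under either. Igfbp4 differed by 0.13 (SE 0.09), or by 0.05 without EFNA3 replicate 1 and 0.14 with the correction. Controls ran from 13.75 for Xbp1, a secretory pathway factor, to 1.49 for Pdzk1.

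Of 13 paracrine relay and receiver genes, 11 were tested, 6 with a higher and 5 with a lower mean and 0 at an unadjusted p under 0.05. Id4, a helix-loop-helix regulator, stood at 11.82 ± 0.06 in controls and 11.97 ± 0.07 with EFNA3 (log2, SD, n = 3), without overlap. Its difference was 0.15 (SE 0.07, limma adjusted p = 0.55), and after correction it was the 1 gene of the list at an unadjusted p under 0.05, where 3.96% of all tested genes stood higher. Tnfrsf11b, the decoy receptor of RANKL, differed by 0.18 (SE 0.10), also without overlap, and its signalling receptor gene Tnfrsf11a by 0.08 (SE 0.09). Without EFNA3 replicate 1, Id4, Tnfrsf11b and Tnfrsf11a differed by 0.11, 0.16 and 0.09, and with the correction by 0.18, 0.16 and 0.17. The WNT coreceptor genes Lrp6, the highest of the list at 12.85 in controls, and Lrp5 differed by -0.24 (SE 0.13) and -0.16 (SE 0.10). They were -0.08 and -0.06 without EFNA3 replicate 1, and with the correction -0.04 and 0.02, so the direction of Lrp5 turned. For Lrp6 the groups did not overlap either, with all EFNA3 values below the controls, as in 7.45% of all tested genes. The WNT amplifier gene Rspo1 was the lowest at 2.64.

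In prolactin signalling, 10 of 11 genes were tested, 4 with a higher and 6 with a lower mean and 0 at an unadjusted p under 0.05. Stat5a, the transcription factor that the receptor activates through JAK2, stood at 10.96 ± 0.02 in controls and 10.87 ± 0.01 with EFNA3 (log2, SD, n = 3). These groups did not overlap, and the difference was -0.09 (SE 0.06, limma adjusted p = 0.57), or -0.08 without EFNA3 replicate 1 and with the correction. The STAT5 feedback gene Cish differed by -0.13 (SE 0.11) and Socs1 by 0.36 (SE 0.33), or by -0.14 and 0.17 without EFNA3 replicate 1 and by -0.06 and 0.32 with the correction. The milk protein gene Csn2, a prolactin target, stood at 3.79 ± 0.55 and 4.49 ± 0.45, a difference of 0.70 (SE 0.39), or 0.58 without EFNA3 replicate 1 and 0.78 with the correction, and Wap was the lowest of the list at 2.57. Elf5, an alveolar progenitor factor, was the highest at 12.57 and differed by 0.002 (SE 0.07), or by -0.05 without EFNA3 replicate 1.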

How the data were processed

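The labels' protocols name total RNA, flow sorting and a stranded kit for mRNA. Trim Galore, Subread, featureCounts and build mm39 appear in the submitters' processing notes. Versions, annotation, strand setting and the step from counts to log values are not given there. The log2 values deposited by the authors have no stated unit: the base was inferred from their range, -0.79 to 18.1, and the sorted columns differed by at most 0.00302. Libraries were grouped by title, 3 against 3, and columns matched by description. Depth is unknown and no counting interval can be given.

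Genes with a value of at least log2 of 10 in at least 3 libraries, 16394, were fitted with limma 3.58.1 in R 4.3.3 (mean-variance trend, no block, no pseudocount, two-sided, Benjamini-Hochberg over all of them). Checks on simulated data preceded this. Length and GC share came from the longest GENCODE M21 transcript by symbol, for 97.4% of tested genes. The correction removed from every library a smooth trend in each (splines, 5 degrees of freedom). The members and lists were chosen with earlier results of these data known. Named genes were all members and, per list, up to 4 with the smallest unadjusted p and the highest and lowest control level. The 3 genes most alike per receptor were named too. Prom1, Areg, Tnfrsf11a, Krt19, Krt15, Mylk and Aldh1a3 were added after their values were seen. So were the basal markers Krt5, Oxtr, Trp63, Acta2 and Tagln. A gene that this rule names is not reported here. Alternatives covered pseudocounts, filters, scaling, variance model, library weights, blocks, each library left out, and the correction. List counts without EFNA3 replicate 1 and with the correction were added after seeing the data.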

Additional observations from a re-analysis of the deposited data

How the results depend on the processing

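Over 21 alternatives, no hormone-sensing gene passed an adjusted p of 0.05 in limma, and the smallest adjusted p among them was 0.33. Pgr, Prlr, Cited1, Wnt4 and Ly6a kept their direction wherever they were fitted. Several alternatives cannot test direction, because they leave each gene's difference as it was. These are the filters, the variance models, centring on the median, quantile normalization and the replicate block of the titles. Esr1 turned to 0.00137 with the length and GC correction without EFNA3 replicate 1. Foxa1 turned to 0.00114 with library weights and 0.000619 with that joint correction, and ran from -0.039 to 0.012 when each library was left out. Centred on general luminal markers, Gata3 was -0.0821, Tbx3 -0.14, the median of the members -0.14 and the number higher 3. Leaving out each library, Tbx3 ran from -0.045 to 0.087, the median from -0.036 to 0.070 and the number higher from 4 to 6. The number at an unadjusted p under 0.05 in limma ran from 0 to 3. The number without overlap ran from 2 to 4, the highest without EFNA3 replicate 3. Groups of any gene overlap less easily with fewer libraries. Shares of all tested genes without overlap are not given for these settings, so the counts only describe the members. The median was -0.00798 with the filter at 50, and 0.065 with the length and GC correction, alone or with the replicate block of the titles. The filter at 50 left 1 gene without overlap. The number at an unadjusted p under 0.05 was 1, against 2, with the filter at 50, centring on luminal markers, no variance trend, either replicate block, and each form of the correction. Over all genes, 71 passed an adjusted p of 0.05 once the description numbers entered as a replicate block, none of them a member, and 0 under every other alternative. In that block control replicate 2 and EFNA3 replicate 2 stood alone, so only the libraries numbered 1 and 7 compared the groups. This left almost no residual spread to test against, so the 71 genes cannot be read as an effect of EFNA3. Same-numbered libraries did not deviate together, with correlations of -0.11, 0.03 and -0.32 for the titles. Deviations from a mean of 3 libraries are tied to each other, and EFNA3 replicate 1 differed from the rest. These correlations therefore cannot tell whether the numbers pair the samples. The cause of these shifts was not tested. Depth is unknown, so counting error could not be given for any gene.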
